A study of Mus musculus with 14 samples.

Results

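The data set compared ATOH1-positive cells of the mouse ileum with ileum crypts that lack Atoh1. Its members were the 3 libraries titled as ileum GFP-positive cells and the 2 titled as ileum knockout, 5 of the 14 libraries in the series. The sorted cells, called GFP here, were live cells (negative for the dye 7AAD) and GFP-positive. They came from ileal crypts of mice homozygous for Atoh1 GFP, an allele that makes a functional ATOH1-GFP fusion protein and leaves the mice phenotypically normal. The knockout crypts, called KO here, came from mice of 6 to 8 weeks with both Atoh1 alleles floxed and the recombinase VilCreERT2, which the Villin promoter drives in the intestinal epithelium. The ileum wild-type crypts (WT, 2 libraries) came from littermates with 1 floxed allele and the same VilCreERT2, so they carried the recombinase too. Neither the age of the GFP mice nor the induction of the recombinase is stated in the labels. The series also held 3 GFP, 2 KO and 2 WT libraries of colon.

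The arms differed in more than Atoh1. The GFP libraries held cells selected by flow cytometry, whereas the KO libraries held whole crypts that were not sorted. Dissociation, sorting, mouse line and cell composition all changed together with the genotype and cannot be told apart here. The make-up of the libraries by RNA class changed with them. Mitochondrial ribosomal RNA took 30.0 to 44.9% of counts in the 6 sorted libraries of both tissues and 0.136 to 0.219% in the 8 crypt libraries. Whether the arms also differed in library preparation was not tested. In bulk samples, fewer cells of a type and less RNA per cell cannot be told apart either. The labels do not say that libraries came from separate animals, so p-values measure the spread between these libraries, which may in part be technical.

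ATOH1 is a basic helix-loop-helix transcription factor that commits crypt progenitors to the secretory lineage, which gives rise to goblet, Paneth, enteroendocrine and, by most accounts, other secretory cells. Cells that express it present Delta ligands and, through Notch receptors and HES1, hold their neighbours in the absorptive lineage. Goblet cells make mucus, Paneth cells at the ileal crypt base make antimicrobial peptides and niche signals for stem cells, and enteroendocrine cells release hormones.

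Gene counts were 7478418 to 11885359 in the 3 GFP libraries and 9992947 and 10139848 in the 2 KO libraries. The ribosomal RNAs of mitochondria, mt-Rnr1 plus mt-Rnr2, took 30.0 to 35.9% of counts in GFP libraries and 0.152 to 0.189% in KO libraries. Reads placed outside genes made up 52.3% of uniquely placed reads in GFP 1, 27.8% in GFP 2 and 31.3% in GFP 3, and 11.3 and 13.2% in KO. GFP 1 stood apart from the other GFP libraries (Pearson correlation of log2(CPM + 1) across genes 0.963 and 0.966, against 0.986 between GFP 2 and GFP 3). Levels are given in CPM, a gene's count scaled by its library's total and TMM factor in a fit of all 14 libraries.

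Of 15274 genes tested with edgeR, 4206 (27.5%) were higher in GFP and 4271 (28%) were lower, at an adjusted p under 0.05. Beyond a 4-fold difference, 684 genes (4.48%) were higher and 571 (3.74%) were lower. The higher count was 399 without KO 1, 393 without KO 2 and 453 with DESeq2. In 5110 genes (33.5%) all 3 GFP libraries exceeded both KO libraries, and in 5603 (36.7%) all 3 lay below. The lists below are described by their counts beside these shares. The median log2 difference of all tested genes was 0.00. The SE printed with a log2 difference is its absolute size divided by the square root of edgeR's F statistic. It follows from the test and is no separate estimate of precision.

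**Figure D1:**
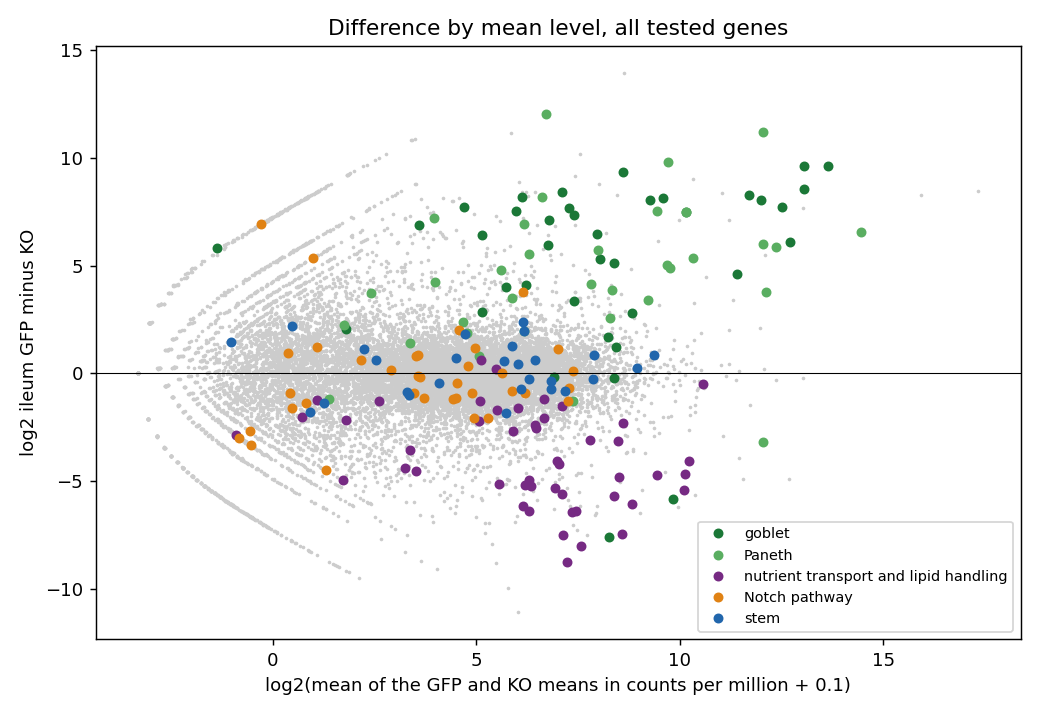
Log2 difference of ileum GFP minus KO (vertical) against the log2 mean CPM + 0.1 of the 2 group means (horizontal) for 15274 tested genes (grey points), with 5 gene lists in colour. Goblet and Paneth genes lie mostly above 0, nutrient transport genes mostly below, and Notch pathway and stem genes on both sides.

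Atoh1 itself was at 196, 323 and 296 CPM in GFP and 1.02 and 0.527 CPM in KO. The groups did not overlap, and the difference was 8.45 on the log2 scale (SE 0.36, adjusted p = 2.52e-09), which checks the labels of both arms. WT crypts held 41.0 and 39.6 CPM, between the arms.

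Of 17 transcription factors of the secretory lineage, 16 were higher in GFP and 1 was lower, with a median log2 difference of 2.96. Cbfa2t3, a corepressor of the ETO family, was at 123, 154 and 144 CPM in GFP and 0.939 and 0.903 CPM in KO (log2 difference 7.23, SE 0.31, adjusted p = 2.52e-09). Its relative Runx1t1 was at 12.8, 25.5 and 17.7 CPM in GFP and at most 0.156 CPM in KO. Both ETO genes were clear of KO in every GFP library. Spdef, which drives goblet and Paneth maturation, was at 116, 282 and 260 CPM in GFP and 2.03 and 1.13 CPM in KO (log2 difference 7.11, SE 0.57). Gfi1, a repressor that keeps endocrine fate in check, was 5.84 higher on the log2 scale (SE 0.48), with 47.1, 102 and 77.6 CPM in GFP against 1.49 and 1.13 CPM in KO. GFP 1 was the lowest of the 3 GFP libraries for 14 of the 17 factors.

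Factors of secretory cell maturation differed in steps of size. Creb3l4, a membrane-bound factor of the secretory pathway, was 6.54 higher on the log2 scale (SE 0.50) and Creb3l1 4.09 higher (SE 0.36). Bhlha15, which scales up the secretory apparatus, was 4.99 higher (SE 0.41) and Foxa3 3.64 higher (SE 0.31). Xbp1, a driver of endoplasmic reticulum (ER) expansion, was at 446, 699 and 783 CPM in GFP and 180 and 153 CPM in KO, a log2 difference of 1.95 (SE 0.24). Sox9, which Paneth cells need, was 1.96 higher (SE 0.30). Foxa1 was at 70.4, 77.6 and 78.8 CPM in GFP and 56.9 and 49.9 CPM in KO (log2 difference 0.50, adjusted p = 0.0244), a small difference that lost the call without GFP 2, GFP 3, KO 1 or KO 2 (adjusted p = 0.0527 to 0.202). Nr2e3, a nuclear receptor, was at 1.70 CPM in GFP 1 and 0.612 and 0.429 CPM in the others, against at most 0.156 CPM in KO (adjusted p = 0.0361, and 0.143 without GFP 1). Hes6 was the 1 factor lower in GFP (log2 difference -0.83, adjusted p = 0.0195; 0.0601 without KO 1, 0.0956 without KO 2 and 0.0650 without GFP 3), and with the GC and length trend of each library removed its difference was -0.01 (adjusted p = 0.981).

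The upstream sequences of 4 of these genes are shown because they hold E-boxes, the kind of motif that basic helix-loop-helix factors bind. They were chosen after the matches were seen. Capitals mark CAGCTG, or CAGATG or its reverse complement CATCTG, in the 250 bases before the RefSeq start (build GRCm38.p6, 5′ to 3′ on the gene's strand). Cbfa2t3 lies on the minus strand at chr8:122699110-122699359, Bhlha15 on the plus strand at chr5:144190036-144190285, Muc2 on the plus strand at chr7:141690090-141690339, and Fcgbp on the plus strand at chr7:28070986-28071235.
Cbfa2t3: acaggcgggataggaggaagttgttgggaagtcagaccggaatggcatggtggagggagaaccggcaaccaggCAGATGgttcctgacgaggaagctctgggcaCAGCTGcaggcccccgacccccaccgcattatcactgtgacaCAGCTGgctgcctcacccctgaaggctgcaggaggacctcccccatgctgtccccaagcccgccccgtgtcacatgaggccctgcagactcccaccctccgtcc
Bhlha15: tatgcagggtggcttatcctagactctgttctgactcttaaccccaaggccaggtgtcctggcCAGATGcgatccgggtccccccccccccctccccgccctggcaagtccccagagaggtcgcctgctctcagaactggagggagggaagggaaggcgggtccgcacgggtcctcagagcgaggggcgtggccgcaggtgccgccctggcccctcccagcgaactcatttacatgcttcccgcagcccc
Muc2: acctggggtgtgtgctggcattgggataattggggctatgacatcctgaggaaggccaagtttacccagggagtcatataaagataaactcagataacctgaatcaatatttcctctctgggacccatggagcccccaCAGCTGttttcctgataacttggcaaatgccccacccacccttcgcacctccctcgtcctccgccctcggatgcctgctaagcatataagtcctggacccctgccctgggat
Fcgbp: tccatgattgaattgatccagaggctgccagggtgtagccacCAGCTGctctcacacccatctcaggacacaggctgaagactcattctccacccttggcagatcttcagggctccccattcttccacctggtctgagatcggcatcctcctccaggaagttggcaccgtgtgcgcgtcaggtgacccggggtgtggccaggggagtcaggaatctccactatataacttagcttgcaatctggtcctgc

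Over the first listed start of each gene, CAGCTG or CAGATG was present in 20.5% of the 10606 tested genes with a RefSeq sequence. It was present in 4 of the 12 matched secretory factors that were higher in GFP and in 10 of the 20 matched goblet genes that were higher. Of the 35 matched nutrient transport genes that were lower, 8 held one. The upstream windows of Atoh1, Spdef, Gfi1, Dll1 and Dll4 held neither motif. A match is a description of the letters in this window and is no measure of binding.

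**Figure D2:**
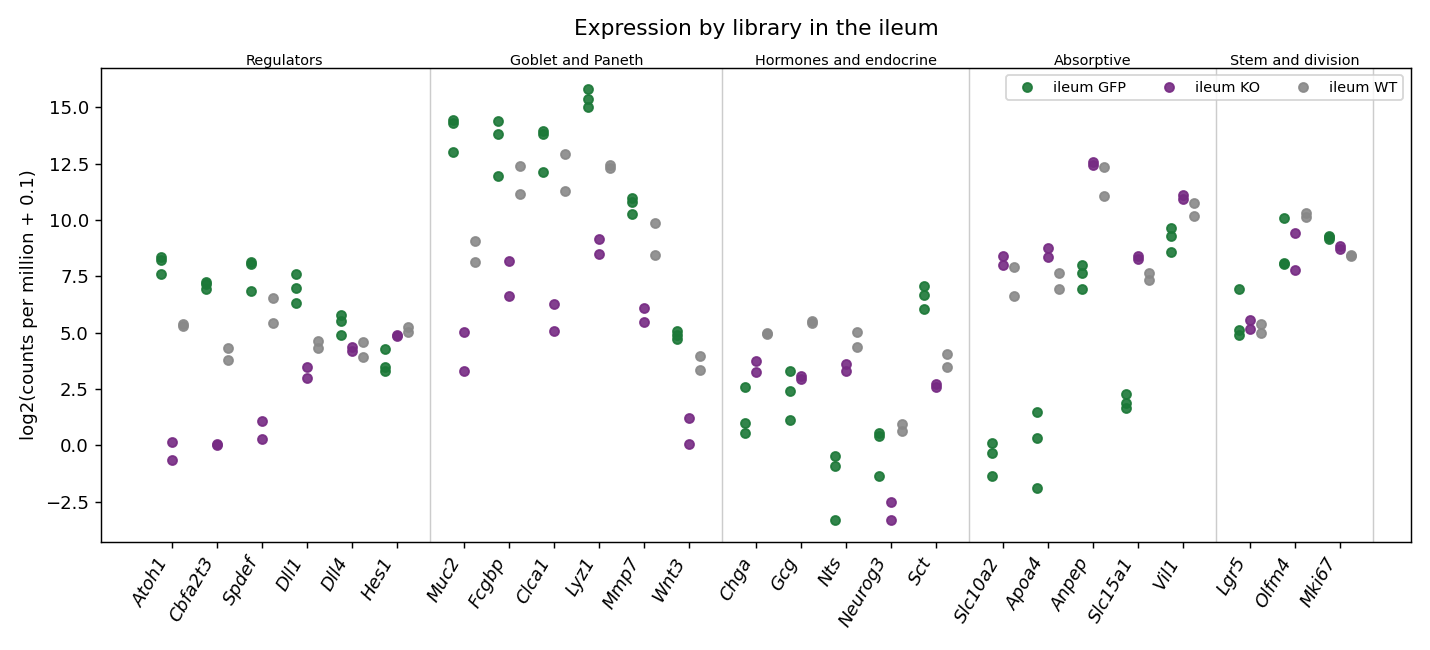
Log2(CPM + 0.1) of 25 genes in the 3 ileum GFP (green), 2 KO (purple) and 2 WT (grey) libraries, 1 point per library. Atoh1, Cbfa2t3, Spdef and Muc2 are separated between GFP and KO in every library, Chga and Gcg are highest in WT, and Lgr5 and Olfm4 are highest among GFP libraries in GFP 1.

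Of 36 tested Notch pathway genes, 7 were higher in GFP and 15 were lower, beside 27.5% and 28% of all tested genes. The median of the list was -0.56. The higher genes included the ligands. Dll1 was at 78.4, 192 and 124 CPM in GFP and 7.90 and 11.1 CPM in KO (log2 difference 3.79, SE 0.52, adjusted p = 8.56e-05). Dll4 was at 29.8, 54.0 and 45.7 CPM in GFP and 20.5 and 18.1 CPM in KO (log2 difference 1.17, SE 0.29, adjusted p = 0.00337). Dll3, which acts within cells, was at 1.53, 1.59 and 1.14 CPM in GFP and had no counts in KO, and was at least 12.4-fold higher. Jag1, a ligand of the other family, did not pass (log2 difference -0.17, SE 0.31).

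Genes whose proteins ready the ligands were higher in GFP than in KO as well. Neurl1a, a ubiquitin ligase of Delta endocytosis, was at 3.31 to 4.09 CPM in GFP and at most 0.151 CPM in KO (2 counts in all). In WT it was at 2.75 and 3.49 CPM, and it did not pass between GFP and WT (edgeR adjusted p = 0.730). Mib1, which acts on the same step, was 1.14 higher on the log2 scale (SE 0.20), with 148 to 212 CPM in GFP. In WT Mib1 was at 100 and 99.7 CPM. Genes of the receiving side differed in direction. Hes1, the Notch effector that represses Atoh1, was at 18.9, 10.9 and 9.58 CPM in GFP and 29.8 and 29.1 CPM in KO (log2 difference -1.18, SE 0.26, adjusted p = 0.00148). Dtx1, a modulator of Notch trafficking, was at most 0.341 CPM in GFP and 3.39 and 5.71 CPM in KO (log2 difference -4.49, SE 0.83). Adam10, the protease that cleaves the receptor, had a log2 difference of -1.29 (SE 0.21).

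The receptor Notch1 was at 35.3 CPM in GFP 1 but 5.14 and 5.72 CPM in GFP 2 and 3, against 57.0 and 68.4 CPM in KO. GFP 1 was the highest of the GFP libraries, and all 3 lay below KO (log2 difference -2.06, adjusted p = 0.0242; 0.0638 without KO 1, 0.0959 without KO 2 and 0.0558 without GFP 3). The count of lower Notch genes was 6 without KO 2 and 9 with the GC and length trend removed. The other receptors were near their threshold as well. Notch2 had a log2 difference of -1.15 (adjusted p = 0.0106, and 0.0793 without KO 2). Notch3 had 2 counts in all GFP libraries against 28 in KO (adjusted p = 0.0233, and 0.0810 without KO 2). Notch4, in contrast, was at up to 16.7 CPM in GFP and lay above the 8.76 and 7.98 CPM of KO in every GFP library (log2 difference 0.85, adjusted p = 0.0109, and 0.0886 without KO 2). Hes5, a Notch target, had 3 counts in GFP and 26 in KO (adjusted p = 0.0337, and 0.0868 by DESeq2). Ncstn, the nicastrin subunit of gamma-secretase, had a log2 difference of -0.67 (adjusted p = 0.0158, and 0.0763 without KO 2). Nrarp, a Notch feedback gene, was at 14.4 CPM in KO 1 and 84.3 CPM in KO 2, so the KO libraries themselves differed, and it did not pass (adjusted p = 0.0585), though it did without KO 1 (0.0133) or without GFP 1 (0.0273).

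Goblet genes had a median log2 difference of 6.44, the highest among the lists of cell types. Of 38 tested, 32 were higher in GFP, 30 of them beyond 4-fold, and 2 were lower. The 32 include Atoh1, whose difference was set by the design, and Spdef, also counted among the secretory factors. Muc2, the gel-forming mucin of the mucus layer, was at 8243, 22035 and 20338 CPM in GFP and 32.8 and 9.56 CPM in KO (log2 difference 9.64, SE 0.87, adjusted p = 1.43e-06). Agr2, a disulfide isomerase needed to fold mucins, was at 10369, 19371 and 20695 CPM in GFP and 59.8 and 29.6 CPM in KO. Zg16, a lectin that binds bacteria in mucus, was 9.62 higher on the log2 scale (SE 0.96), Tff3, a trefoil peptide, 8.05 higher (SE 0.64) and Fcgbp, a mucus protein, 6.10 higher (SE 0.83).

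Less abundant goblet genes were as clear. The chemokine genes Ccl9 and Ccl6 were 9.37 higher (SE 0.75) and 8.16 higher (SE 0.43). Rep15 was at 75.5 to 190 CPM in GFP and at most 0.626 CPM in KO. Goblet RNA was also uneven within the arms. GFP 1 was lowest in 34 of the 38 genes, and KO 1 exceeded KO 2 in 30. Their summed level was 58845 CPM in GFP 1, 152724 in GFP 2 and 136357 in GFP 3, and 4471 and 3677 CPM in KO 1 and KO 2. The KO sums hold the 2 listed genes that were lower in GFP, Clca4a (657 and 565 CPM) and Clca4b (1876 and 1693 CPM). They are therefore no measure of the other goblet genes in KO.

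Clca4a and Clca4b, which share the calcium-activated chloride channel regulator family with Clca1, went the opposite way. Clca4a was at 0.852, 2.82 and 5.43 CPM in GFP and 657 and 565 CPM in KO (log2 difference -7.62, SE 0.67), and Clca4b had a log2 difference of -5.85 (SE 0.50). Clca1 was 7.72 higher (SE 0.93), at 4483, 15768 and 14449 CPM in GFP against 76.2 and 33.3 CPM in KO. These 3 members were thus split between the arms.

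Of 34 tested Paneth genes, 27 were higher in GFP and 2 were lower, with a median of 4.52. Lyz1, the Paneth lysozyme, was at 32830, 57064 and 42208 CPM in GFP and 568 and 364 CPM in KO (log2 difference 6.56, SE 1.79, adjusted p = 0.0114). Mmp7, which activates defensins, was at 1226, 1777 and 1987 CPM in GFP and 67.4 and 43.7 CPM in KO (adjusted p = 0.0111). Both lost the call without KO 1 (adjusted p = 0.0768 and 0.0702) or without KO 2 (0.0917 and 0.0910), although every GFP library stood far above both KO libraries. These fits take the spread from all 14 libraries, including the colon GFP libraries, in which Lyz1 was at 1434, 37.8 and 42.0 CPM. The count of higher Paneth genes was 18 without KO 1.

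Defensin genes are near-identical copies, so the split of reads between them is uncertain. Defa17 was at 2110, 1299 and 1585 CPM in GFP and 2.19 and 1.43 CPM in KO, and lost its call without KO 1 (adjusted p = 0.0532) or KO 2 (0.0585). Defa24 was at 12917, 8481 and 9637 CPM in GFP and 206 and 148 CPM in KO, and did not pass in the 14-library fit (adjusted p = 0.0545) but did in the 5 libraries alone. The listed genes Copz2, Nupr1 and Habp2 kept their call under every alternative run. Copz2 is also on the ER export list, and Copz2 and Nupr1 were higher in colon GFP (56.0 to 71.4 and 339 to 400 CPM) than in ileum GFP (22.0 to 36.2 and 59.8 to 134 CPM). Copz2, a coat protein subunit, was 7.24 higher on the log2 scale (SE 0.46), Nupr1 3.51 higher (SE 0.37) and Habp2 4.80 higher (SE 0.74).

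Paneth cells also supply stem cell niche signals. Wnt3, the epithelial Wnt ligand, was at 26.1, 33.6 and 29.7 CPM in GFP and 0.939 and 2.18 CPM in KO (log2 difference 4.24, SE 0.66, adjusted p = 0.000246). Egf was at 5.80, 13.0 and 10.1 CPM in GFP and 0.626 and 0.828 CPM in KO. Kit, the receptor that marks deep crypt secretory cells, was at 347, 454 and 460 CPM in GFP and 13.2 and 21.2 CPM in KO (log2 difference 4.61, SE 0.53). Reg4, the marker of deep crypt secretory cells in colon, was at 500 to 665 CPM in GFP and 4.54 and 7.75 CPM in KO (adjusted p = 0.0111, and 0.0891 without KO 1). Of the 17 tested deep crypt secretory and niche genes, 10 were higher and 2 were lower.

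Hormone genes did not follow the goblet and Paneth genes. Of 15 tested hormone and amine genes, 1 was higher in GFP, 6 were lower and 8 did not pass, with a median of -1.42 (-1.63 with the gene at 0 in a group at its bound). Sct, which encodes secretin, was the higher one, at 65.8, 101 and 133 CPM in GFP and 5.94 and 6.40 CPM in KO (log2 difference 4.02, SE 0.66). Nts (neurotensin) was at most 0.612 CPM in GFP and 9.70 and 11.9 CPM in KO, a log2 difference of -4.80 (SE 0.59). Pyy (peptide YY) had 8 counts in GFP and 65 in KO (adjusted p = 0.0158, and 0.0592 without KO 2), and Sst (somatostatin) 5 and 38 (adjusted p = 0.0209, and 0.105 without KO 1). Chga, the granule protein chromogranin A, was at 1.36, 5.88 and 1.86 CPM in GFP, 13.1 and 9.49 CPM in KO and 30.9 and 31.1 CPM in WT. Gcg, which encodes the glucagon-like peptides, did not pass between GFP and KO (log2 difference -0.53, adjusted p = 0.331), though it did without GFP 1 (0.0306). It was at 2.08 to 9.72 CPM in GFP, 7.51 and 8.28 CPM in KO and 45.8 and 42.6 CPM in WT. For 12 of the 15 genes the WT mean was above both arms.

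Endocrine granule genes split, 9 higher and 5 lower of 28 tested, beside 27.5% and 28% of all tested genes. The WT mean was above both arms for 16 of the 28. Ptprn2, a dense-core granule protein, was at 66.8, 136 and 132 CPM in GFP and 2.27 and 1.43 CPM in KO. The monoamine transporter Slc18a1 was 3.98 higher on the log2 scale (SE 0.35), whereas Cpe, the carboxypeptidase that trims prohormones, had a log2 difference of -3.20 (SE 0.47). Of 13 endocrine transcription factors, 4 were higher, a share near that of all tested genes, and 1 was lower. The 4 include Runx1t1, also counted among the secretory factors. Against WT, 2 of the 13 were higher in GFP and 6 lower, and the WT mean was above both arms for 10. Neurog3, the endocrine commitment factor, was at 1.36, 1.22 and 0.286 CPM in GFP and at most 0.0753 CPM (1 count) in KO. In WT it was at 1.45 and 1.83 CPM. Insm1, which acts after it, had 20 counts in GFP and 7 in KO (adjusted p = 0.0200, and 0.102 without GFP 1). Of 26 tested tuft genes, 4 were higher and 4 lower, both below the shares of all tested genes (27.5% and 28%). Ptprc, among the lower ones, is also on the immune list, and Cd24a is also on the Paneth list. Pou2f3, the tuft master factor, was at 3.92, 4.90 and 5.58 CPM in GFP and 0.469 and 1.20 CPM in KO, and lost its call without any one of the 5 libraries (adjusted p = 0.0580 to 0.219). For 24 of the 26 the WT mean was above both arms. Against WT, 2 of the 26 were higher in GFP and 18 lower. The summed level of tuft genes was 914, 1212 and 1263 CPM in GFP and 163 and 172 CPM in KO. Between GFP and KO 18 of the 26 did not pass, so the sum does not describe most members. It was 338 CPM in WT 1 and 1427 CPM in WT 2, so the WT libraries differed.

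The secretory machinery was higher in GFP. Of 77 tested genes of ER translocation and folding, 55 were higher and 4 lower, with a median of 1.15. Ern2, the goblet stress sensor of the ER, was at 392, 600 and 534 CPM in GFP and 9.78 and 15.5 CPM in KO (log2 difference 5.33, SE 0.33). The foldases Pdia5 and Txndc5 were 3.42 higher (SE 0.35) and 3.17 higher (SE 0.35), and Sec61b, a subunit of the translocon, 2.17 higher (SE 0.18). The chaperone Hspa5 was at 848 CPM in GFP 1 and 2052 and 2092 CPM in GFP 2 and 3, against 1021 and 717 CPM in KO, and did not pass (adjusted p = 0.0643). Without GFP 1 it passed (adjusted p = 0.00783). GFP 1 was lowest in 70 of the 77 genes.

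Of 56 genes of ER export and Golgi traffic, 31 were higher and 7 lower, with a median of 0.68; without KO 2, 19 were higher. Of 36 granule exocytosis genes, 26 were higher and 3 lower, with a median of 1.74. Sytl2, which tethers granules by RAB27, was at 432, 561 and 491 CPM in GFP and 6.34 and 4.82 CPM in KO (log2 difference 6.47, SE 0.33), and Rab27a was 4.24 higher (SE 0.32). Mlph, a RAB27 effector, was 3.82 higher (SE 0.27).

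Mucin O-glycosylation genes, 54 tested, were 30 higher and 10 lower. Galnt5, which starts the glycan, was at 112, 279 and 244 CPM in GFP and 3.68 and 3.09 CPM in KO. C1galt1c1, the chaperone of the core enzyme, was 3.54 higher (SE 0.37), and the sialyltransferase gene St6galnac2 3.21 higher (SE 0.25). Other sugar-transferring genes were lower. St3gal4 was at 62.7, 90.7 and 87.1 CPM in GFP and 1162 and 928 CPM in KO (log2 difference -3.70, SE 0.21, adjusted p = 2.21e-08), and B4galnt3 had one of -4.33 (SE 0.48). Sialyltransferase genes therefore stood on both sides.

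**Figure D3:**
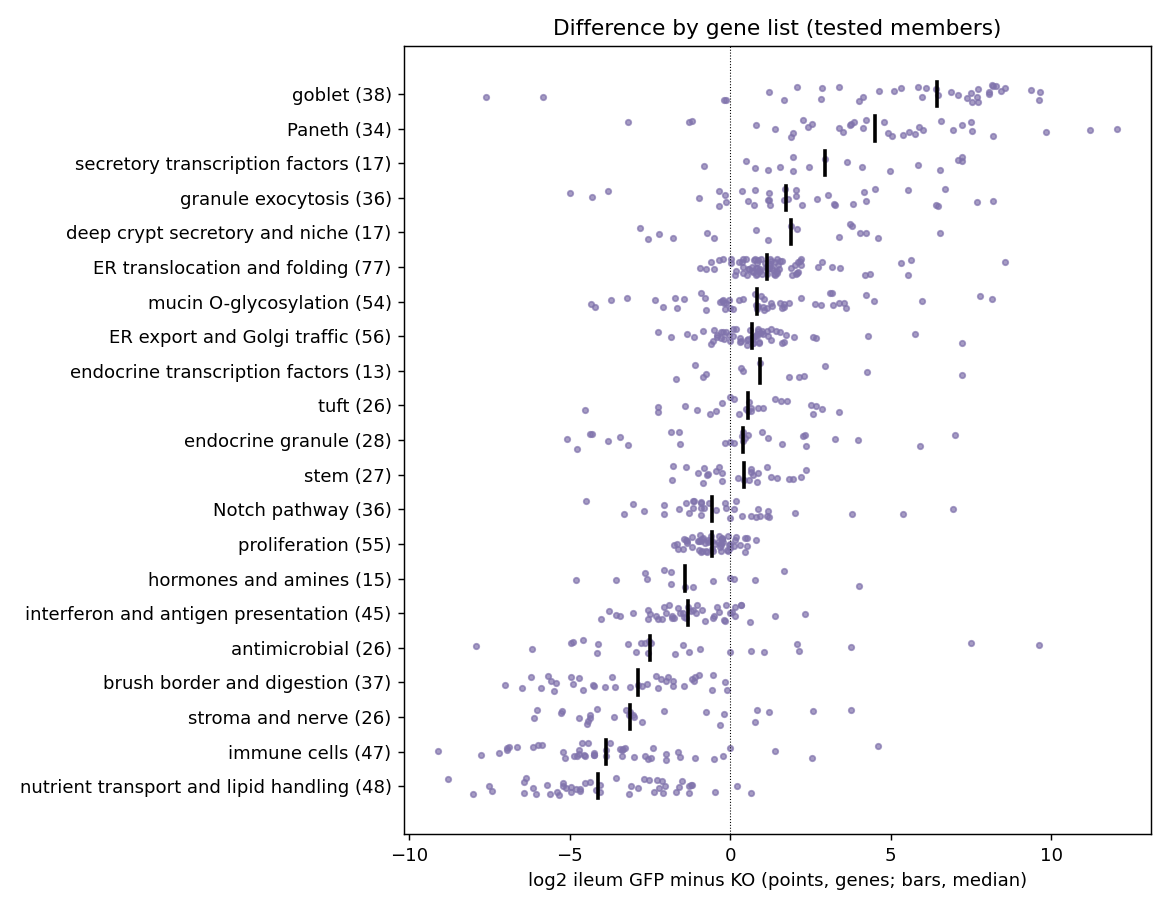
Log2 difference of ileum GFP minus KO (horizontal) for the tested members of 21 gene lists (points, genes; bars, list medians; number tested in parentheses). The goblet list has the highest median, 6.44, and the nutrient transport and lipid handling list the lowest, -4.12.

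Absorptive genes were lower in GFP. Of 48 tested nutrient transport and lipid handling genes, 43 were lower, with a median of -4.12. None was higher in edgeR, at an unadjusted p under 0.05 (0 genes) or in DESeq2 (0 genes), but 1 was higher with the 5 libraries alone and 2 with the GC and length trend removed. Slc10a2, the ileal bile acid transporter, was at 0.682, 0.980 and 0.286 CPM in GFP and 342 and 253 CPM in KO (log2 difference -8.78, SE 0.69, adjusted p = 1.86e-06). Apoa4, an apolipoprotein of chylomicrons, was at 0.170, 2.69 and 1.14 CPM in GFP and 434 and 326 CPM in KO. Slc15a1, the peptide transporter, had a log2 difference of -6.42 (SE 0.25) and Slc5a1, the sodium-glucose transporter, one of -4.70 (SE 0.22). Fabp2, a fatty acid binding protein, was an exception at 1044, 1438 and 1322 CPM in GFP and 1839 and 1727 CPM in KO, and did not pass (adjusted p = 0.147) except with the GC and length trend removed (0.00661).

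Of 37 brush border and digestion genes, 33 were lower, with a median of -2.89, and none was higher in edgeR, at an unadjusted p under 0.05 (0 genes) or in DESeq2 (0 genes). Anpep, an aminopeptidase, was at 121, 258 and 202 CPM in GFP and 6018 and 5517 CPM in KO (log2 difference -4.90, SE 0.57). Vil1, the microvillus protein villin, whose promoter drives the recombinase, was at 378, 802 and 618 CPM in GFP and 2181 and 1955 CPM in KO. Cdx2, an intestinal identity factor, had a log2 difference of -3.48 (SE 0.24), at 25.4, 20.6 and 15.4 CPM in GFP against 229 and 227 CPM in KO.

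Stem cell genes gave no single direction. Of 27 tested, 9 were higher, 5 lower and 13 did not pass, beside 27.5% higher and 28% lower of all tested genes. The median of the list was 0.42. Without GFP 1, 8 were higher and 10 lower, and the median was -0.27. Without KO 1, 5 were higher and 4 lower. Lgr5, the marker of crypt base stem cells, was at 121 CPM in GFP 1 and 30.0 and 34.0 CPM in GFP 2 and 3, against 35.2 and 47.0 CPM in KO, and did not pass (adjusted p = 0.345). Olfm4, another stem cell marker, was at 1069 CPM in GFP 1 and 272 and 265 CPM in the others, and at 692 and 220 CPM in KO. GFP 1 was the highest GFP library for 20 of the 27 genes. Soat1 was 2.37 higher (SE 0.26) and Smoc2, a niche gene, had a log2 difference of -0.71 (SE 0.16).

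Of 55 proliferation genes, 28 were lower and 2 higher, with a median of -0.57. Mcm5, of the replication helicase, was at 43.8, 41.9 and 54.5 CPM in GFP and 121 and 124 CPM in KO (log2 difference -1.39, SE 0.19), and Ccnd1 (cyclin D1) had one of -1.45 (SE 0.20). Top2a, a DNA topoisomerase of dividing cells, had a log2 difference of -0.47 (adjusted p = 0.0169, and 0.0951 without KO 1). Mki67, a marker of cycling cells, was at 575, 614 and 596 CPM in GFP and 423 and 453 CPM in KO, and did not pass (adjusted p = 0.0671; 0.0368 with the replicate number as a block).

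Markers of other cells in crypt preparations were low in GFP. Of 47 tested immune genes, 30 were lower and 2 higher, with a median of -3.89 (-3.36 with genes that had no counts in a group at their bound). Their summed level was 1372, 1048 and 861 CPM in GFP, of which Kit made up 347, 454 and 460 CPM. It was 3239 and 2852 CPM in KO and 4360 and 1127 CPM in WT, so WT 2 lay within the range of GFP. Cd3d, Cd8b1, C1qa, C1qb and C1qc had no counts in any GFP library, which allows up to 0.143 CPM over the 3. Ptprc, the leukocyte antigen CD45, was at 2.05, 0.612 and 1.00 CPM in GFP and 30.5 and 23.0 CPM in KO. Jchain, of antibody-secreting cells, had 1 count in GFP and 846 in KO (adjusted p = 0.0156, and 0.0534 without GFP 2). One of the 2 higher genes was Kit, at 347 to 460 CPM in GFP, which is also on the deep crypt secretory list. Of 26 stroma and nerve genes, 14 were lower and 2 higher, and their summed level was 30.2 to 37.7 CPM in GFP and 103 and 107 CPM in KO. Epithelial markers were high in both arms, with Cdh1 at 866 to 1230 CPM in GFP and 1131 and 1160 CPM in KO. Epcam had a log2 difference of -0.64 (adjusted p = 0.0363, and 0.187 with the GC and length trend removed). The part of these cells in the lower genes was not tested.

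Of 26 tested antimicrobial and defence genes, 12 were lower in GFP and 3 higher, with a median of -2.50 (-1.59 with such genes at their bound). Of these, Zg16 and Ang4 are goblet genes as well. Reg3b was at 448, 348 and 480 CPM in GFP and 14486 and 10964 CPM in KO (log2 difference -4.90, SE 0.66), and the related Reg3g, also on the Paneth list, had one of -3.18 (SE 0.60). Nos2, which makes nitric oxide, was at 7.50, 3.43 and 2.29 CPM in GFP and 302 and 322 CPM in KO. Of 45 interferon and antigen presentation genes, 20 were lower and 2 higher, with a median of -1.33.

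Immediate early genes and RNA classes also differed between the arms, and the part of sample handling in this was not tested. Of 36 immediate early genes, which dissociation and sorting can induce, 16 were higher in GFP and 7 lower. Egr1 was at 272, 538 and 376 CPM in GFP and 16.5 and 12.1 CPM in KO (log2 difference 4.79, SE 0.47), and Dusp1 was 5.15 higher (SE 0.39). Fos was at 97.0, 378 and 237 CPM in GFP and 122 and 71.5 CPM in KO, so the arms overlapped (adjusted p = 0.0269, and 0.206 without KO 2). Jund had a log2 difference of -3.59 (SE 0.19), at 8.52, 7.71 and 11.9 CPM in GFP against 125 and 101 CPM in KO. Of 20 tested short noncoding RNAs, 10 were higher and 10 did not pass, with a median of 1.72 (7 higher and a median of 0.89 with the GC and length trend removed). Of 25 replication-dependent histone genes 19 were higher and 1 lower, with a median of 4.07, and Rn7sk was at 249, 329 and 441 CPM in GFP and 0.469 and 0.678 CPM in KO. Annotated antisense genes, 245 tested, had a median of 2.20. Without a stated strand setting their reads cannot be told apart from those of the overlapping gene.

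The log2 difference also moved with base composition. With the tested genes split into 5 equal bins of GC content, the median was 0.34 in the lowest bin (up to 44.4%) and -0.70 in the highest (over 55.6%). The medians of KO minus WT in the same bins were -0.03 and -0.01, and neither of those groups was sorted. Hnrnpa0, a gene with 1 exon, was at 0, 0.245 and 0.286 CPM in GFP and 87.4 and 91.5 CPM in KO. Over all 225 tested coding genes with 1 exon, 59 were higher and 67 lower, beside 27.5% and 28% of all tested genes. The median of the 225 was -0.08, and Atoh1 and Rep15 are among the higher ones. The part of base composition, RNA class and sorting in the differences above was not tested beyond removing the GC and length trend, an alternative chosen after seeing the data. Over the 358 tested genes that the naming rule covers, 317 then stayed on the same side of the threshold, 11 lost the call, 28 gained one and 2 changed sign (H2afx and Gata6, neither of which passed before).

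WT crypts, which were not sorted, give the unsorted reference of the same tissue. They carried a floxed Atoh1 allele and VilCreERT2, so a full dose of Atoh1 cannot be assumed. The comparisons of GFP with WT and of KO with WT share libraries with GFP minus KO, so the values are only set side by side. KO was lower than WT in 249 genes (1.63%) and higher in 16 (0.105%). Of the 38 goblet genes, 25 were lower in KO than in WT and 28 were higher in GFP than in WT, and for 34 the WT mean lay between the arms. Atoh1 is in each of these counts. Paneth genes were less clear against WT. Of the 34 tested, 9 were lower in KO than in WT, and 9 were higher and 2 lower in GFP than in WT. For 27 the WT mean lay between the arms. Their summed level was 24303 CPM in WT 1 and 57208 CPM in WT 2, so the WT libraries differed. Of the 48 nutrient transport genes, none was called by edgeR between KO and WT (8 at an unadjusted p under 0.05), and 43 were lower in GFP than in WT. Muc2 was at 283 and 542 CPM in WT, and Slc10a2 at 241 and 97.1 CPM. GFP was higher than WT in 3759 genes (24.6%) and lower in 4300 (28.2%).

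The colon libraries allowed a test of whether GFP minus KO was of the same size in both tissues. In colon, 3642 genes (23.8%) were higher in GFP than in KO and 3810 (24.9%) were lower. The difference of GFP minus KO was more positive in ileum than in colon for 388 genes (2.54%) and more negative for 325 (2.13%). With single libraries left out, the first count was between 142 (without ileum KO 2) and 618 (without ileum GFP 1), and the second between 131 (without colon KO 2) and 524 (without ileum GFP 1). Most ileum libraries share a sample code with a colon library, and with that code as a block the counts were 949 and 721. Atoh1 was more positive in ileum by 2.88 on the log2 scale (SE 0.42, adjusted p = 0.00127), with 231 to 295 CPM in colon GFP and 5.21 and 5.91 CPM in colon KO. Of the 38 goblet genes 22, Atoh1 among them, were more positive in ileum and 1 more negative. Of the 36 exocytosis genes 15 were more positive, and none was more negative in edgeR (1 at an unadjusted p under 0.05).

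Some genes changed side between the tissues. Myof, a membrane repair protein, was at 74.8, 137 and 134 CPM in ileum GFP and 5.01 and 3.61 CPM in ileum KO, but at 31.7, 17.1 and 22.6 CPM in colon GFP and 78.4 and 75.6 CPM in colon KO (difference 6.43, SE 0.45, adjusted p = 7.25e-06). Adra2a, an adrenergic receptor, did the same (difference 6.67, SE 0.76, adjusted p = 0.000435). Klf4, a factor of goblet maturation, had a log2 difference of 0.78 in ileum and -1.87 in colon (difference 2.65, SE 0.34, adjusted p = 0.00054). Its own ileum call was lost without GFP 2, GFP 3, KO 1 or KO 2 (adjusted p = 0.0517 to 0.0908). Fut2, a fucosyltransferase of mucin glycans, had a log2 difference of -1.44 in ileum and 1.31 in colon (difference -2.75, SE 0.28, adjusted p = 8.98e-05).

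Absorptive genes of the ileum gave the most negative differences. Of the nutrient transport genes, 15 of 48 were more negative in ileum and 1 more positive. Slc6a19, the neutral amino acid transporter, was at most 4.60 CPM in ileum GFP and 726 and 783 CPM in ileum KO, and at 0.299 to 2.13 CPM in all colon GFP and KO libraries (difference -7.94, SE 0.63, adjusted p = 1.32e-05). Anpep had a log2 difference of -4.90 in ileum and 3.72 in colon (difference -8.61, SE 0.88, adjusted p = 0.000207). Mme, a neutral endopeptidase, had a log2 difference of -5.48 in ileum and was at 0.748 to 2.62 CPM in the colon GFP and KO libraries (difference -6.11, SE 0.60). Slc5a12, Enpp7 and Sis, a lactate transporter, a sphingomyelinase and sucrase-isomaltase, had negative differences too (-9.50, -7.91 and -6.28; adjusted p = 0.0274, 0.0272 and 0.0351). All 3 lost the call in several alternatives, with an adjusted p of up to 0.110 for Slc5a12, 0.179 for Enpp7 and 0.199 for Sis when single libraries were left out. Without colon GFP 1 the differences were -9.63 (Slc5a12), -6.37 (Enpp7) and -3.72 (Sis). Colon KO held 0 counts of Slc5a12, so the size of its fitted difference depends on the prior count.

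**Figure D4:**
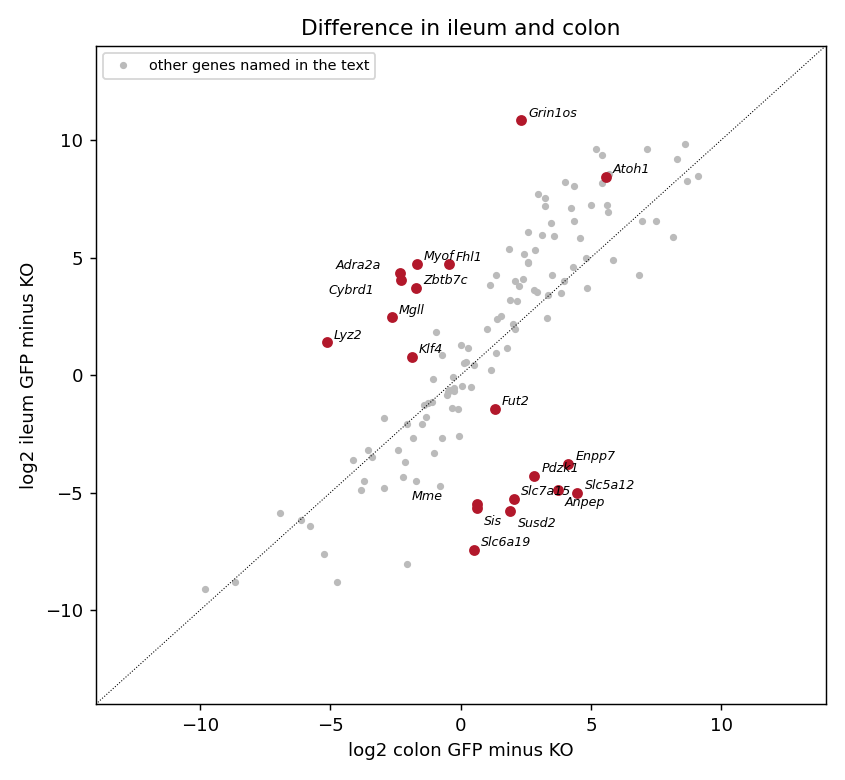
Log2 difference of GFP minus KO in ileum (vertical) against colon (horizontal) for genes named in the text (grey) and genes whose differences were compared between tissues (red, labelled); the dotted line marks equal differences. Myof, Adra2a and Cybrd1 lie above 0 in ileum and below 0 in colon, and Anpep lies below 0 in ileum and above 0 in colon.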

How the data were processed

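Whole-number counts per Ensembl gene were deposited by the authors without normalization. TopHat 1.4.1, HTSeq and the mm9 build are named per the submitters' processing notes, with no annotation release or strand setting in the labels. Lines that name no gene, such as ambiguous reads (0.490 to 0.697% of all lines in ileum GFP, 1.22 and 1.24% in KO), entered neither library sizes nor tests.

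Each library had 36536 genes, and 31004 got a symbol by Ensembl ID from a table of gene names. Genes were tested with edgeR 4.0.16 in R 4.3.3 (TMM, filterByExpr, robust quasi-likelihood fit, Benjamini-Hochberg adjustment over 15274 genes) on all 14 libraries, which share 1 estimate of the spread. glmTreat with a log2 threshold of 2 tested differences beyond 4-fold. Where a group had no counts, the fold is a bound against 3 counts over that group and covers counting error only. Replicates were not identical and differed beyond counting noise (chi-square of 10.5 or more per gene). GC content and length came from GENCODE M21 transcripts (95.8% of tested genes).

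The members, the 32 gene lists and the tests were chosen with earlier results of these data known. A rule named genes: Atoh1, the largest rises and falls at 10 CPM or more without overlap between arms, list members by size of difference or by level, all secretory factor, endocrine factor and Notch genes, the largest tissue differences and the most abundant genes. The text names a part of these, and 25 genes outside the rule, such as Lgr5, Vil1, Mmp7 and Tff3, which were chosen after their values were seen. Alternatives were DESeq2 1.42.0 (size factors and Wald test), no mitochondrial genes, no low-count filter, only the groups compared, replicate number or sample code as a block, and each library left out. The fit was also run on simulated counts in which all groups shared the same expression profile, apart from genes changed on purpose. That run lacked the differences in RNA class, base composition and library quality seen here, so it says nothing on them.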

Additional observations from a re-analysis of the deposited data

Results flagged for a closer look

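The difference of GFP minus KO differed between ileum and colon for 388 genes that were more positive in ileum and 325 that were more negative, by edgeR's test of the difference itself. More positive on the log2 scale were Atoh1 (2.88), Klf4 (2.65), Grin1os (8.51), Adra2a (6.67), Lyz2 (6.54), Myof (6.43), Cybrd1 (6.35), Zbtb7c (5.44), Fhl1 (5.17) and Mgll (5.10). Grin1os is annotated as antisense, so its reads cannot be told apart from those of the overlapping gene. Cybrd1 lost the call without colon KO 2 (adjusted p = 0.0512) and Lyz2 with the sample code as a block (0.101). More negative were Fut2 (-2.75), Mme (-6.11), Slc5a12 (-9.50), Anpep (-8.61), Slc6a19 (-7.94), Enpp7 (-7.91), Susd2 (-7.69), Slc7a15 (-7.29), Pdzk1 (-7.09) and Sis (-6.28). Slc5a12, Enpp7 and Sis lost the call in 8, 8 and 10 alternatives.

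Reads outside genes, which enter no comparison, made up 52.3% of uniquely placed reads in ileum GFP 1, 27.8% in GFP 2 and 31.3% in GFP 3, above the 11.3 and 13.2% of the KO libraries. Their origin was not tested.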

How the results depend on the processing

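The counts of genes higher and lower in ileum GFP than KO stayed within 1.5 times under every alternative (3021 to 4110 higher and 3393 to 4291 lower with a library left out). Beyond 4-fold, the higher count was 453 with the DESeq2 Wald test and 393 (without KO 2) to 640 with a library left out. The tissue difference moved most. More positive genes numbered 673 without the low-count filter, 949 with the sample code that ileum and colon libraries share as a block, 641 with DESeq2 and 142 to 618 with a library left out. More negative genes numbered 699, 721, 537 and 131 to 524. Of 32 lists, 23 stayed within 1.5 times throughout. With the 5 libraries alone, 2 endocrine factors were higher. With the GC and length trend removed, an alternative chosen after seeing the data, 9 Notch genes and 3 mitochondrially encoded genes were lower. Leaving mitochondrially encoded genes out left 0 of these and 0 mitochondrial ribosomal RNAs by construction. With a library left out, the counts were 6 to 16 for lower Notch genes, 2 to 3 for higher tuft genes, 19 to 34 for ER export, 5 to 9 for stem, 0 to 1 for red blood cells, 12 to 23 for oxidative phosphorylation and 1 to 3 for mitochondrially encoded genes. Elsewhere the cause was not tested. Of the 358 tested genes that the naming rule covers, printed or not, 245 stayed on the same side of the threshold throughout, 38 of the 233 called ones lost the call at least once and 2 changed sign with the GC trend removed. Without KO 2 30 lost it, and without KO 1 27. GFP and KO share only replicate numbers 1 and 2 and come from different mice, and same-numbered deviations correlated at -0.16 and -0.19. With the replicate block 4157 genes were higher and 4264 lower, and 4 of the rule's genes lost the call and 15 gained one. Depth limits what can be called for genes at a few counts.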
